A study of Mus musculus with 12 samples.

Results

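RNA-seq of the inferior vena cava (IVC) was examined for 10 genes that endothelium uses to sense blood flow, to answer it and to hold leukocytes: Klf2, Klf4, Nos3, Edn1, Piezo1, Pecam1, Vcam1, Icam1, Sele and Selp. The genes were chosen by name from these roles, with earlier results of these data known. All 10 were found among the 55414 genes of the table and passed the filter that left 15912 genes for the test of AVF against sham. The libraries came from 12 wild-type C57BL/6 mice aged 10 weeks, 1 library per mouse. In 6 mice, 3 female and 3 male, an aortocaval fistula (AVF) had been made below the renal vessels by passing a needle through the aorta into the IVC, and 6 sham-operated mice, again 3 female and 3 male, had the same operation without the puncture. All mice carried no transgene and shared isoflurane anesthesia, buprenorphine and clamping of the vessels, and the IVC was taken on postoperative day 7, after the vessels were flushed with saline. In mice with an AVF the piece of IVC reached from above the fistula to below the left renal vein. The whole piece of vein was lysed, so each value is a mean over endothelium, smooth muscle, fibroblasts, fat and leukocytes, and fewer cells of a type cannot be told apart from less RNA per cell.

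Endothelial cells read the drag of flowing blood through membrane channels and junctional proteins, and steady laminar flow is known to raise the transcription factors KLF2 and KLF4, which in turn favor the nitric oxide synthase NOS3 over the vasoconstrictor endothelin-1, the product of Edn1. Low or disturbed flow and inflammatory signals through NF-kappaB are known to raise the adhesion molecules VCAM1, ICAM1, E-selectin (Sele) and P-selectin (Selp), which slow and arrest circulating leukocytes. A fistula joins an artery to a vein, so the vein receives arterial flow and pressure, and the comparison asks how these genes stood in the vein wall after 7 days of that flow.

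The libraries held 15177881 to 22717423 counts, and levels are given as normalized CPM, each count as a part of its library, with library sizes scaled by edgeR's TMM factors. Ribosomal RNA took 46% of the counts in AVF female 1 and 2.39% to 12.6% in the others, so that library carried the fewest other counts. The study set AVF male 2 and AVF female 2 apart from the other AVF libraries by their expression. These libraries held 2698 and 8105 normalized CPM of 8 summed hepatocyte marker genes, against at most 6.48 in any other library. Each comparison of AVF with sham over both sexes was also computed without AVF male 2 and AVF female 2. Skeletal and atrial muscle markers, 6 genes, summed to 562.2 normalized CPM in Sham female 1 and 959.2 in Sham female 3. Every other library held at most 33.6. None of the 18 endothelial marker genes was at 0 in any library, and their summed level was 2865 to 4189 normalized CPM in AVF and 2623 to 3992 in sham.

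**Figure D1:**
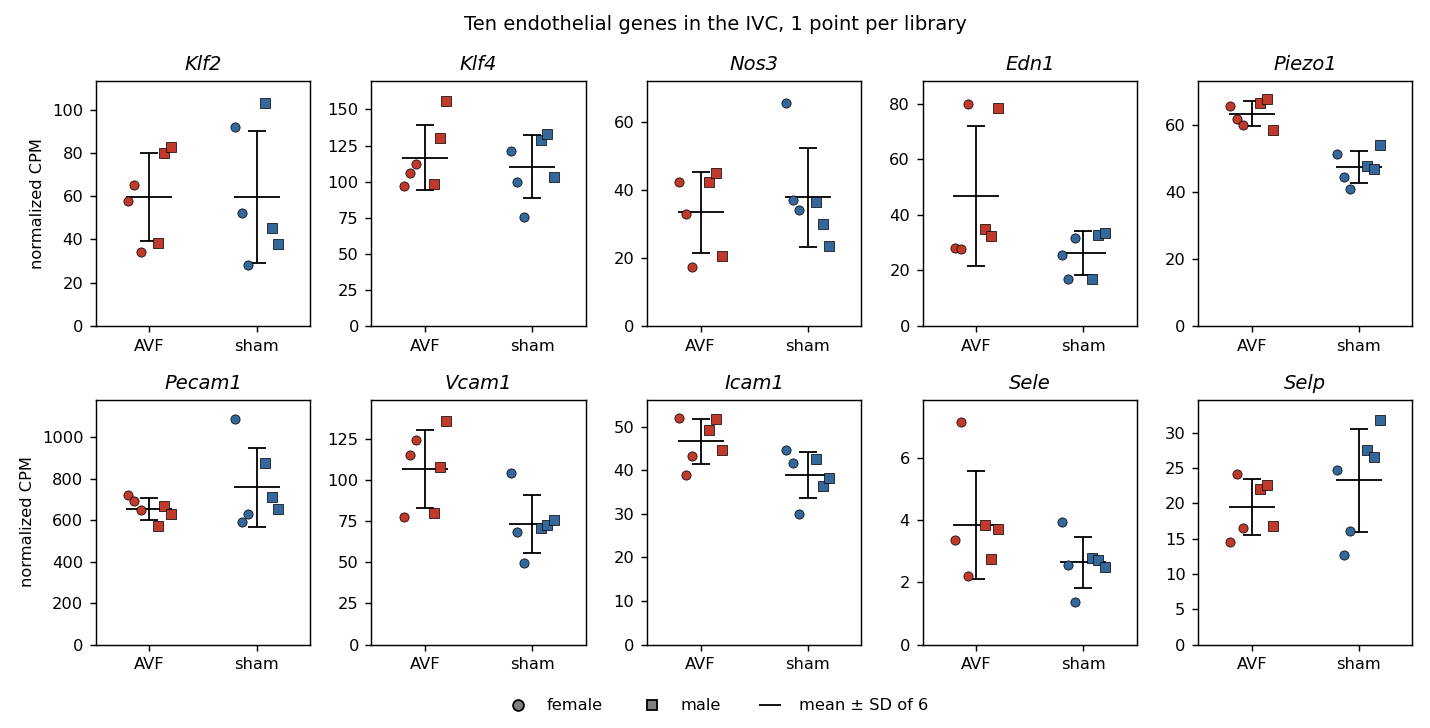
Normalized CPM (y axes, linear, from 0) of the 10 genes in the 6 AVF and the 6 sham libraries, with circles for females, squares for males and black bars for the mean ± SD of 6 libraries. Piezo1 is the gene whose groups do not overlap, at 58.5 to 67.6 in AVF and 40.8 to 54.0 in sham, while Edn1 has 2 AVF libraries near 80.

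Of the 10 genes, 1 changed between AVF and sham at an adjusted p under 0.05 (edgeR's quasi-likelihood test, adjusted by Benjamini-Hochberg over all 15912 genes tested). Over all genes tested the same call was made for 13.8%, with 8.63% higher and 5.13% lower in AVF, so the share among the 10 was near that of all genes. The changed gene was Piezo1, which rose 1.33-fold. The fold change was above 0 on the log2 scale for 7 genes and below 0 for 3. Their median log2 fold change was 0.17, beside -0.01 over all genes tested. At an unadjusted p under 0.05 there were 4 of the 10, Piezo1, Vcam1, Edn1 and Icam1, all 4 with the higher mean in AVF, and 31.6% of all genes tested passed that limit.

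**Figure D2:**
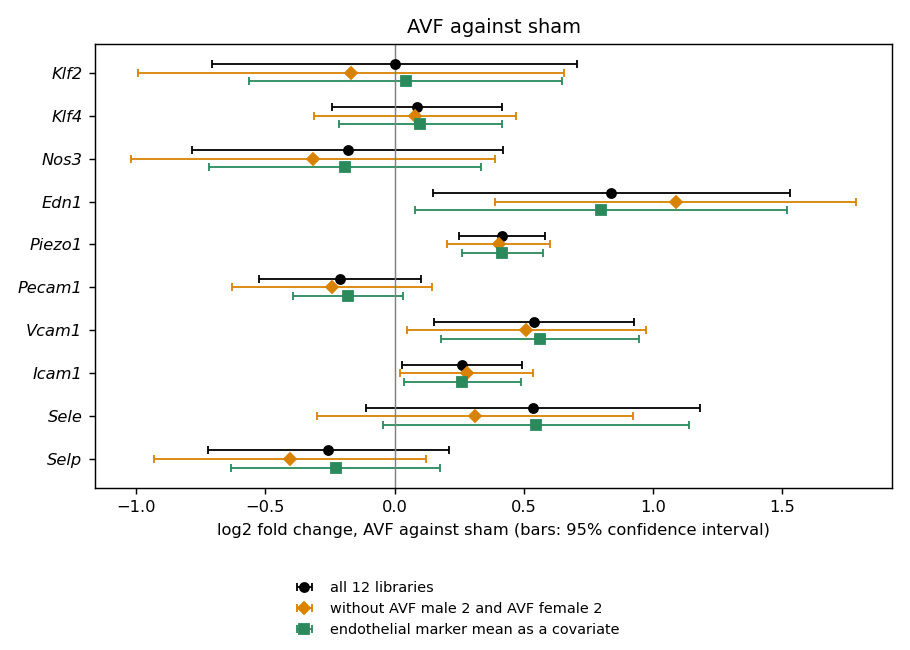
Log2 fold change of AVF against sham for the 10 genes (x axis), with bars for the 95% confidence interval, in all 12 libraries (black), without AVF male 2 and AVF female 2 (orange) and with the mean endothelial marker level as a covariate (green). The interval of Piezo1 is the narrowest, 0.25 to 0.58 in all 12 libraries, and that of Klf2 runs from -0.71 to 0.71.

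Among the genes for mechanosensors, Piezo1 (ENSMUSG00000014444, chr8:123208437-123278072, minus strand) encodes a cation channel opened by membrane tension. Coordinates here and below are of the gene on GRCm39. Piezo1 was measured at 65.7, 61.8 and 60.1 normalized CPM in the female and 66.6, 67.6 and 58.5 in the male AVF libraries. The sham libraries held 51.2, 44.4 and 40.8 in females and 47.7, 46.9 and 54.0 in males. Every AVF library was above every sham library. Over all genes tested, 4.55% were separated in this way with AVF higher. The means were 63.4 ± 3.75 in AVF and 47.5 ± 4.71 in sham (SD, n = 6 each), a log2 fold change of 0.42 (SE 0.0774, adjusted p = 0.00507). Without AVF male 2 and AVF female 2, where 7.92% of genes were called, it was 0.40 (adjusted p = 0.0222), and with the mean endothelial marker level as a covariate 0.42 (adjusted p = 0.00478). With any 1 library left out it stayed between 0.38 and 0.45 with an adjusted p of at most 0.0133.

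Piezo1 is also transcribed in cells other than endothelium, and markers of other cell types moved with the operation. Of 9 macrophage markers, 8 rose, and their summed level was 1131 to 1850 normalized CPM in AVF and 590 to 978.2 in sham. Of 7 fibroblast markers, 5 rose, with sums of 17340 to 29040 in AVF and 8461 to 16790 in sham. Of 6 brown fat markers, 3 fell, and 5 were called lower by edgeR's exact test and by DESeq2. Their sums were 18.4 to 212.4 in AVF and 105.8 to 1500 in sham. Of 7 sympathetic neuron markers, none was called by the quasi-likelihood test, but all 7 were lower at an unadjusted p under 0.05 and were called lower by edgeR's exact test and by DESeq2, with sums of 117.4 to 655.7 in AVF and 277.2 to 1098 in sham. None of 7 smooth muscle markers was called by any of these tests or had an unadjusted p under 0.05. The part of these cells in the higher Piezo1 was not tested. Its paralog Piezo2, the channel known from touch and proprioception, had a larger fold change and rose from 6.01 to 14.4 normalized CPM in sham to 26.8 to 45.2 in AVF, with a log2 fold change of 1.80 (SE 0.196, adjusted p = 0.000272).

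The promoter of Piezo1 is shown because it is the changed gene, as the 250 bases before the start of its canonical transcript on the GRCm39 build, written along the strand of the gene. Capitals mark letters that match CCNCNCCC (a KLF-type GC-rich box) or GAGACC (the motif known as the shear stress response element), read on either strand.
Piezo1 (chr8:123278073-123278322, minus strand): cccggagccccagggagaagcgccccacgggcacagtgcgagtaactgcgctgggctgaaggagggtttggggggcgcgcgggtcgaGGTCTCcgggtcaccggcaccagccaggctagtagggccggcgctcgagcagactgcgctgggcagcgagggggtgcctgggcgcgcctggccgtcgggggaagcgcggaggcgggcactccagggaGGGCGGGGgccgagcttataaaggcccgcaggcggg
The capitals near the 5′ end of this run are GAGACC read on the other strand, and those near its 3′ end are the KLF-type box, also on the other strand. GAGACC was found in 14.9% of 21757 promoters of this length and CCNCNCCC in 48.8%, and a match is a description of letters only.

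Pecam1 (ENSMUSG00000020717, chr11:106543689-106641454, minus strand) encodes the junctional adhesion protein PECAM1, part of the complex that carries shear signals at cell contacts and a general marker of endothelium, platelets and some leukocytes. The gene was at 570 to 722 normalized CPM in AVF (median 660) and at 590 to 1090 in sham (median 683). The groups overlapped, and Sham female 1 (1090) and Sham male 1 (877) were the highest. The log2 fold change was -0.21 (SE 0.145, 95% interval -0.52 to 0.10, adjusted p = 0.341). The 8 platelet markers summed to 20.6 to 74.6 normalized CPM in AVF and 42.9 to 221.2 in sham, highest in Sham male 1, and none of the 8 was called. At an unadjusted p under 0.05 there were 2 of these 8, beside 31.6% of all genes tested, and DESeq2 called 1 lower.

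Over all genes tested, 8.63% were called higher and 5.13% lower, and the counts in this and the later pathway lists stand beside those shares. Of 16 other genes for flow sensors and their partners, 4 rose and none fell, with a median log2 fold change of 0.28. Beside Piezo2 these were Calcrl, the receptor of adrenomedullin and CGRP (0.95, SE 0.183, adjusted p = 0.0064), Pkd1, which encodes polycystin-1 (0.47, SE 0.11, adjusted p = 0.0178), and Flt4, which encodes VEGFR3 (0.45, SE 0.115, adjusted p = 0.0234). Without AVF male 2 and AVF female 2, 3 of the 16 rose, with Flt4 no longer called (adjusted p = 0.0753). In all 12 libraries DESeq2 called 7 higher and edgeR's exact test 3. Over all genes with an adjusted p, DESeq2 called 21.4% and the exact test 12.6%, both directions together, and the fit without those libraries 7.92%. Flt4 is also 1 of 6 lymphatic markers, and of the other 5 only Pdpn, the mucin-like protein podoplanin, was called, as higher (0.87, SE 0.167, adjusted p = 0.00639). Of the 6, 5 had a log2 fold change above 0, 3 had an unadjusted p under 0.05, and DESeq2 called 3 higher. Their sum was 411.9 to 628.2 normalized CPM in AVF and 280.9 to 460 in sham. The part of lymphatic endothelium in the higher Flt4 was not tested.

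The flow-responsive transcription factors did not pass the test. Klf2 (ENSMUSG00000055148, chr8:73072726-73075502, plus strand) was measured at 57.8, 65.2 and 34.4 normalized CPM in the female and 38.2, 79.7 and 82.7 in the male AVF libraries. The sham libraries held 91.9, 52.0 and 28 in females and 103, 45.4 and 38.1 in males. The levels spread 3.7-fold from the lowest to the highest library, and both ends were sham libraries. The means were 59.7 ± 20.3 in AVF and 59.7 ± 30.4 in sham, and the 95% interval of the log2 fold change ran from -0.71 to 0.71 (adjusted p = 0.999).

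Klf4 (ENSMUSG00000003032, chr4:55527139-55532528, minus strand), a close relative that shares many targets with Klf2, was at 97.3 to 156 normalized CPM in AVF (median 109) and 75.2 to 133 in sham (median 112). The groups overlapped almost fully, and AVF male 3 was the highest library. The log2 fold change was 0.09 (SE 0.152, 95% interval -0.24 to 0.41, adjusted p = 0.742). DESeq2 and edgeR's exact test called neither factor, and neither had an unadjusted p under 0.05.

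The kinase cascade above these factors and genes known to answer to them gave 2 of 16 higher and 1 lower, with a median log2 fold change of 0.04. Over all genes tested the shares were 8.63% higher and 5.13% lower. Heg1, an endothelial receptor that holds junctions together, rose from 300 to 486 normalized CPM in sham to 729 to 1380 in AVF (log2 fold change 1.17, SE 0.166, adjusted p = 0.00117). Hmox1, the heme-degrading enzyme heme oxygenase-1, rose from 12.5 to 15.6 in sham to 19.3 to 41.2 in AVF (0.93, SE 0.163, adjusted p = 0.00371). Hmox1 is also abundant in macrophages, whose markers rose, and their part in the higher Hmox1 was not tested. Aqp1, a water channel of endothelium, fell from 339 to 518 in sham to 206 to 317 in AVF (-0.72, SE 0.135, adjusted p = 0.00526). The groups did not overlap for any of these 3 genes, as for 4.55% of all genes tested with AVF higher and 1.51% with AVF lower. Thbd, the anticoagulant receptor thrombomodulin and a well-known KLF2 target, had a log2 fold change of 0.24 (SE 0.137, adjusted p = 0.253).

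Of the vasoactive genes, Edn1 had the largest fold change of the 10. The gene (ENSMUSG00000021367, chr13:42446301-42461466, plus strand) was measured at 28.1, 27.8 and 80.0 normalized CPM in the female and 34.9, 32.3 and 78.5 in the male AVF libraries. The sham libraries held 25.4, 17.0 and 31.8 in females and 17.0, 32.9 and 33.6 in males. AVF female 3 and AVF male 3 were more than 2 times as high as any sham library, while the other 4 AVF libraries lay at 27.8 to 34.9, within or just above the range of sham. In all, 3 of 6 AVF libraries were above every sham library. The means were 46.9 ± 25.2 in AVF and 26.3 ± 7.75 in sham (SD, n = 6 each), a log2 fold change of 0.84 (SE 0.319, 95% interval 0.15 to 1.53), and the call was missed (adjusted p = 0.0935). The call depended on the test: edgeR's exact test gave an adjusted p of 0.0394 and DESeq2 0.0351. The exact test called 12.6% and DESeq2 21.4% of all genes with an adjusted p. Without AVF male 2 and AVF female 2 the log2 fold change was 1.09 (adjusted p = 0.059).

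Nos3 (ENSMUSG00000028978, chr5:24569787-24589475, plus strand) encodes the nitric oxide synthase of endothelium. The gene was at 42.2, 32.9 and 17.4 normalized CPM in the female and 42.2, 44.9 and 20.7 in the male AVF libraries, and at 65.5, 37.1 and 34.1 in the female and 36.5, 30.1 and 23.5 in the male sham libraries. The same AVF female 3 and AVF male 3 that held the most Edn1 held the least Nos3, both below every sham library. The other 4 AVF libraries, at 32.9 to 44.9, lay inside the sham range. The log2 fold change was -0.18 (SE 0.278, 95% interval -0.78 to 0.42, adjusted p = 0.697). Without Sham female 1, the highest library, it was 0.05.

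The promoters of both vasoactive genes are shown because KLF2 is known to act on them in opposite directions. They are again the 250 bases before the canonical start on GRCm39, with matches to CCNCNCCC and GAGACC in capitals.
Nos3 (chr5:24569537-24569786, plus strand): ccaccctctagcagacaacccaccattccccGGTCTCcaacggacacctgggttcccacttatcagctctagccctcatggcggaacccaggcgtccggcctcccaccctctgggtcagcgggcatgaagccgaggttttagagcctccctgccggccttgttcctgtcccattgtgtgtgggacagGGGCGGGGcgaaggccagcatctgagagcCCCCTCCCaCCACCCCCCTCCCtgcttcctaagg
Edn1 (chr13:42454492-42454741, plus strand): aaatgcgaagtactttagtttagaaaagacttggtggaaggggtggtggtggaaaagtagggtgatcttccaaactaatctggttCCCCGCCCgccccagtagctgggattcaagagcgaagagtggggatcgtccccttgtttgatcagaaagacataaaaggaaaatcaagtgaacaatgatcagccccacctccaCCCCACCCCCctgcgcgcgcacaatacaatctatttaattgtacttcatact
Both runs hold the KLF-type box, 4 matches in Nos3 and 3 in Edn1, counting overlapping ones, and Nos3 also holds GAGACC on the other strand.

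Partners of both genes mostly stayed below the threshold. Of 13 tested genes of the nitric oxide pathway, 1 fell and none rose, beside 5.13% and 8.63% of all genes tested. This was Gucy1a1, a subunit of the soluble guanylate cyclase through which smooth muscle reads nitric oxide (-0.37, SE 0.11, adjusted p = 0.041). It was not called without AVF male 2 and AVF female 2, and with 1 library left out it was called in 3 of 12 fits, those without AVF male 3, Sham female 2 or Sham female 3 (adjusted p up to 0.0701 in the others). The direction of the calls in this list depended on the test, since edgeR's exact test called 1 gene higher and none lower and DESeq2 called 1 higher and 2 lower. Ddah1, which degrades an inhibitor of nitric oxide synthases, had the fold change of greatest size in the list, 0.59 on the log2 scale (SE 0.203, adjusted p = 0.0692). Gch1, which makes the cofactor of nitric oxide synthases, had a log2 fold change of -0.56 (SE 0.278, adjusted p = 0.185). Cav1, whose product caveolin-1 binds and restrains NOS3, had -0.04 (SE 0.142, adjusted p = 0.888). The median of the 13 was 0.00. None of 5 tested genes of the endothelin pathway was called, and DESeq2 called 1 higher. An unadjusted p under 0.05 was reached by 2 of the 5, beside 31.6% of all genes tested. These 2 were Ednra, the receptor on smooth muscle (0.40, SE 0.133, adjusted p = 0.0646), and Ece1, the enzyme that cuts the precursor to endothelin-1 (0.31, SE 0.116, adjusted p = 0.0922). Ednrb, the receptor that endothelium carries, had 0.08 (SE 0.169, adjusted p = 0.776).

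None of the 4 adhesion molecules for leukocytes was called by edgeR's quasi-likelihood test. At an unadjusted p under 0.05 there were 2 of the 4, beside 31.6% of all genes tested. Vcam1 (ENSMUSG00000027962, chr3:115903598-115923355, minus strand), the ligand of the integrin that pairs Itga4 with Itgb1, came closest. It was at 77.4, 115 and 124 normalized CPM in the female and 80.1, 108 and 136 in the male AVF libraries, and at 104, 68.4 and 49.5 in the female and 70.6, 72.6 and 75.5 in the male sham libraries. All but 1 sham library were below every AVF library, the exception being Sham female 1 at 104, and 4 of 6 AVF libraries were above all of sham. The means were 107 ± 23.7 in AVF and 73.5 ± 17.7 in sham, a log2 fold change of 0.54 (SE 0.178, 95% interval 0.15 to 0.92, adjusted p = 0.0621). The adjusted p was 0.0459 with edgeR's exact test and 0.0261 with DESeq2. Leaving out 1 library gave 0.45 to 0.66, with an adjusted p of 0.0266 to 0.124, under 0.05 without AVF male 1, AVF female 1 or Sham female 1. Vcam1 is also made by smooth muscle and macrophages, and the macrophage markers rose as given above. The part of these cells in the level of Vcam1 was not tested.

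Icam1 (ENSMUSG00000037405, chr9:20926672-20940113, plus strand), the ligand of the leukocyte integrins that carry Itgb2, differed less, at 39 to 52.0 normalized CPM in AVF (median 47.0) and 30.0 to 44.7 in sham (median 40.0). The log2 fold change was 0.26 (SE 0.107, 95% interval 0.03 to 0.49, adjusted p = 0.117). DESeq2 did not call it, nor did edgeR's exact test.

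The selectins begin the rolling of leukocytes along the wall. Sele (ENSMUSG00000026582, chr1:163867401-163886055, plus strand), which endothelium makes mostly after activation, was the lowest of the 10, with 28 to 130 counts per library. Its level was 2.21 to 7.13 normalized CPM in AVF (median 3.53) and 1.36 to 3.92 in sham (median 2.63), above the 0.127 to 0.324 that 3 counts were worth. AVF female 2, 1 of the 2 libraries set apart by the study, was the highest. The log2 fold change was 0.54 (SE 0.298, 95% interval -0.11 to 1.18, adjusted p = 0.24) and 0.31 without both of those libraries. Selp (ENSMUSG00000026580, chr1:163942833-163977595, plus strand), whose product is stored in endothelium and also made by megakaryocytes, was at 14.5 to 24.2 in AVF (median 19.4) and 12.7 to 31.8 in sham (median 25.6), and its log2 fold change was -0.26 (SE 0.216, 95% interval -0.72 to 0.21, adjusted p = 0.448).

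The promoters of Vcam1 and Sele are shown as the adhesion genes with the largest fold changes. Capitals mark GGNNNTTCC (a loose NF-kappaB motif) or TGANTCA (AP-1) on either strand.
Vcam1 (chr3:115923348-115923597, minus strand): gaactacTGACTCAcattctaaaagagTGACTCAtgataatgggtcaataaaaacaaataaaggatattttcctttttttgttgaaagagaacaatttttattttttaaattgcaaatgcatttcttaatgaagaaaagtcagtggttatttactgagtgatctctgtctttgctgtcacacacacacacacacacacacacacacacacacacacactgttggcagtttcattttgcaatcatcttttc
Sele (chr1:163875523-163875772, plus strand): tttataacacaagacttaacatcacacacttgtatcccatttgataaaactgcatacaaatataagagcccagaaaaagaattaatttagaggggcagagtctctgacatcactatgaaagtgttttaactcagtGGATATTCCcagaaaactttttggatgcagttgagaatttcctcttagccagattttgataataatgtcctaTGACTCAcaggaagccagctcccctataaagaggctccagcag
Vcam1 holds 2 matches to TGANTCA in this window and Sele holds 1, together with 1 match to GGNNNTTCC. Of the 21757 promoters, 6.18% held TGANTCA and 15.8% GGNNNTTCC. Among all 10 genes, matches were found to TGANTCA in 3, to GGNNNTTCC in 4, to GAGACC in 3, to CCNCNCCC in 6 and to the MEF2 motif (3.31% of promoters) in 0.

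On the side of the leukocytes, 6 of 12 counter-receptor genes rose and none fell, with a median log2 fold change of 0.54. Of all genes tested, 8.63% were called higher. Itga4, the integrin chain that binds VCAM1, rose from 34.1 to 60.9 normalized CPM in sham to 61.6 to 151 in AVF (log2 fold change 1.19, SE 0.216, adjusted p = 0.00442). Its partner Itgb1 rose by less (0.53, SE 0.112, adjusted p = 0.0111). Itgam, the chain of the ICAM1 receptor on myeloid cells, rose from 27.2 to 45.1 in sham to 54.5 to 78.7 in AVF (0.78, SE 0.138, adjusted p = 0.00379). Cd44, a ligand of E-selectin and a receptor of hyaluronan, rose too (0.62, SE 0.114, adjusted p = 0.00466). Itgb1 and Cd44 are transcribed in most cells of the vein wall. Itgb2, the shared chain of leukocyte integrins, had a log2 fold change of 0.54 (SE 0.194, adjusted p = 0.0787), and Selplg, the ligand of P-selectin, 0.38 (SE 0.138, adjusted p = 0.0816). The macrophage markers rose with this list, whereas none of 5 tested neutrophil markers was called by edgeR's quasi-likelihood test, its exact test or DESeq2, and none had an unadjusted p under 0.05. The part of macrophages in the rise of this list was not tested.

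Other adhesion and junction molecules of endothelium gave 2 of 12 lower and none higher, with a median log2 fold change of -0.10. Among all genes tested, 5.13% were called lower. Cd99l2, which leukocytes use to pass between endothelial cells, fell by 0.32 on the log2 scale (SE 0.0666, adjusted p = 0.00895), and the junctional adhesion molecule Jam2 fell by 0.49 (SE 0.143, adjusted p = 0.041). The call of Cd99l2 was missed with edgeR's exact test (adjusted p = 0.119), and that of Jam2 held in 3 of 12 fits with 1 library left out, those without AVF female 2, Sham male 3 or Sham female 2 (adjusted p up to 0.0821 in the others). None of 12 regulators and targets of NF-kappaB was called. At an unadjusted p under 0.05 there were 4 of the 12, near the 31.6% of all genes tested. The other tests pointed opposite ways, with 1 gene called higher by edgeR's exact test and 1 called lower by DESeq2. Of 12 genes known from disturbed flow and YAP and TAZ signaling, 6 rose and 1 fell, beside 8.63% and 5.13% of all genes tested. The 12 had a median log2 fold change of 0.65, and 4 rose and 1 fell without AVF male 2 and AVF female 2. Those with the lowest adjusted p were Hif1a, the hypoxia-responsive transcription factor (0.61, SE 0.0883, adjusted p = 0.00129), Ccn2, the matrix protein CTGF (1.80, SE 0.363, adjusted p = 0.00811), Thbs1, the matrix protein thrombospondin-1 (0.93, SE 0.226, adjusted p = 0.0203), and Angpt2, a ligand of the endothelial receptor TEK, which fell (-0.55, SE 0.133, adjusted p = 0.0205). Ccn2 and Thbs1 are also abundant in fibroblasts, whose markers rose, and their part in the higher Ccn2 and Thbs1 was not tested.

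**Figure D3:**
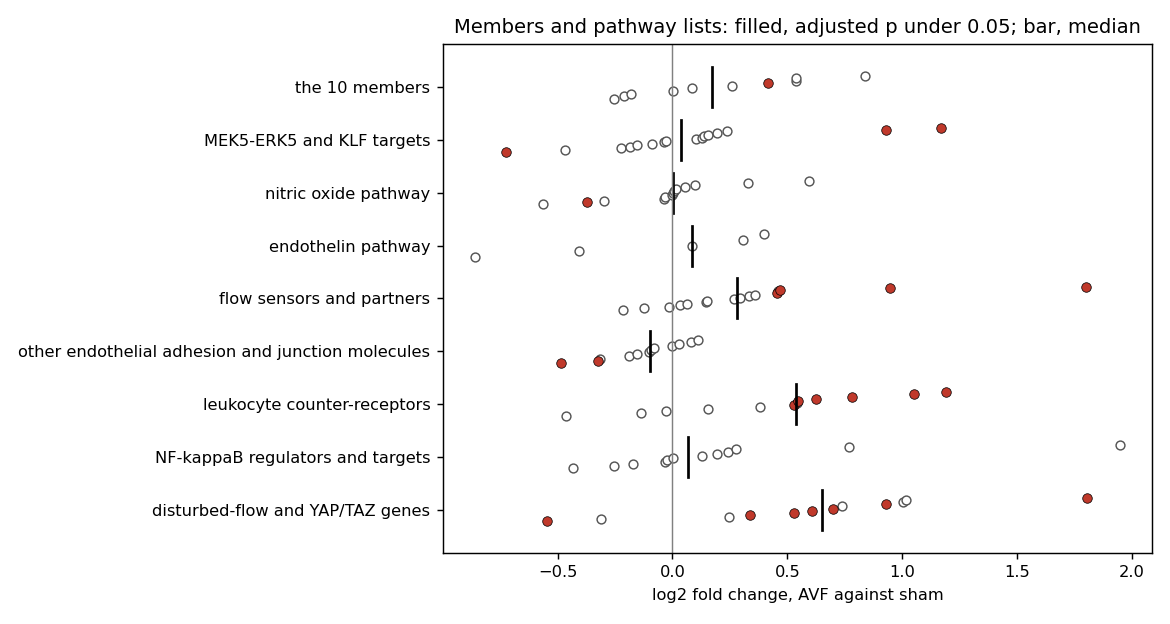
Log2 fold change of AVF against sham (x axis) for the tested genes of the 10 members and of 8 pathway lists, 1 point per gene, filled where the adjusted p was under 0.05, with a bar at the median of each list. The medians run from -0.10 for other adhesion and junction molecules to 0.65 for the genes of disturbed flow, with 0.17 for the 10 members.

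To set the members against the amount of endothelial RNA, the 18 endothelial markers were summed in each library. The sum had a median of 3217 normalized CPM in AVF and 3250 in sham, and the log2 difference of means was 0.05 (exact permutation test over 924 splits, two-sided, p = 0.658, smallest possible p 0.00216). Of the 18 markers, 1 rose, Eng, and 1 fell, Mmrn2. The measure depended on how markers were summarized. The median of log2 CPM over the 18 markers, taken within each library, was lower in AVF by 0.32 (-0.32, exact permutation p = 0.0216). That median follows only the markers of middle level in a library. The sum in turn weighs most on the abundant markers Ptprb and Vwf. Their means were 986 and 803 normalized CPM in AVF, where the sum had a mean of 3373. In sham they were 963 and 730, beside 3254 for the sum. The log2 fold changes of the 18 markers themselves had a median of 0.01, with 9 of 18 above 0. Relative to the sum, Piezo1 was 1.57% to 2.16% in AVF and 1.29% to 1.70% in sham, a log2 difference of 0.37 (exact permutation p = 0.013, unadjusted, 1 of 10 ratios tested). Vcam1 was 1.85% to 4.01% in AVF and 1.63% to 2.62% in sham (log2 difference 0.49, exact permutation p = 0.0433, unadjusted). Edn1 was 0.672% to 2.55% and 0.508% to 1.05% (0.68, exact permutation p = 0.0887, unadjusted), and Pecam1 17.2% to 24.2% and 20.3% to 27.3% (-0.23, exact permutation p = 0.0563, unadjusted). Without AVF male 2 and AVF female 2 the log2 differences were smaller for Piezo1 (0.28) and Vcam1 (0.37). They were larger in size for Edn1 (0.86) and Pecam1 (-0.33). With Cdh5, the cadherin of endothelial junctions, as the only reference, 10 further ratios were tested, with p again unadjusted. The log2 difference was 0.26 for Piezo1 (exact permutation p = 0.0325) and 0.38 for Vcam1 (exact permutation p = 0.104). It was 0.58 for Edn1 (exact permutation p = 0.19) and -0.34 for Pecam1 (exact permutation p = 0.00649).

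**Figure D4:**
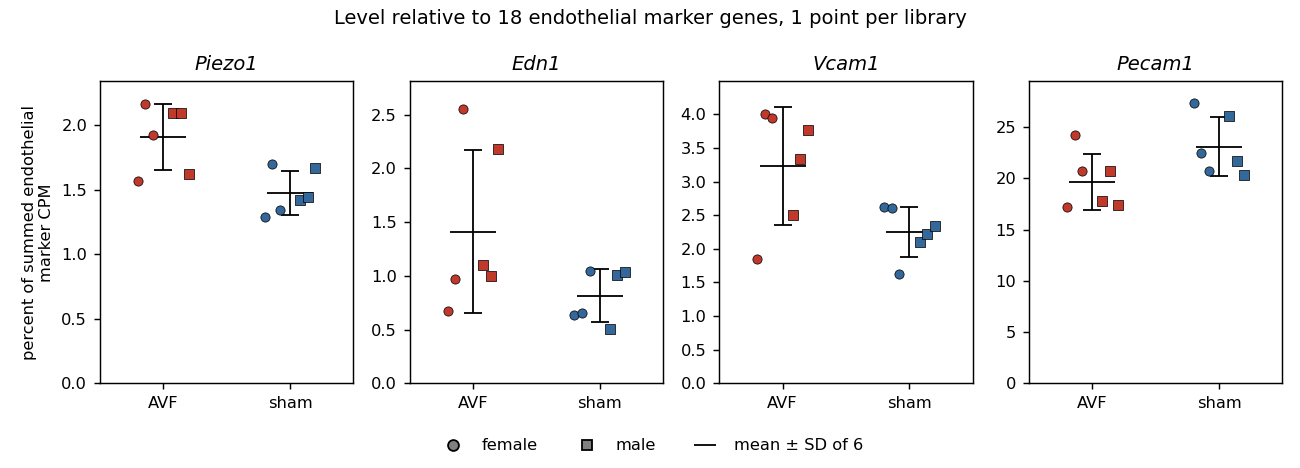
Normalized CPM of Piezo1, Edn1, Vcam1 and Pecam1 as a percent of the summed normalized CPM of 18 endothelial markers (y axes, linear, from 0) in 6 AVF and 6 sham libraries, with circles for females, squares for males and bars for the mean ± SD. Piezo1 lies at 1.57% to 2.16% in AVF and 1.29% to 1.70% in sham, and Pecam1 at 17.2% to 24.2% and 20.3% to 27.3%.

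Within each sex, 3 AVF libraries were compared with 3 sham libraries in a fit of all 12. None of the 10 genes was called in females or in males (edgeR), where 2.21% and 0.541% of 22163 genes were, and 1 of the 10 had an unadjusted p under 0.05 in each sex, Piezo1 both times, beside 19.7% of all genes in females and 13.5% in males. Its log2 fold change was 0.43 in females (SE 0.114, adjusted p = 0.0788) and 0.38 in males (SE 0.114, adjusted p = 0.19). Edn1 had 0.86 in females and 0.81 in males (SE 0.477 and 0.476, adjusted p = 0.348 and 0.483), with 1 library of about 80 normalized CPM in each sex. Vcam1 had 0.48 and 0.57 (SE 0.274 in both, adjusted p = 0.354 and 0.389). Nos3 was -0.61 in females and 0.26 in males (SE 0.367 and 0.365). The difference between the sexes in its fold change was -0.87 (SE 0.518, 95% interval -2.0 to 0.26, adjusted p = 0.96), and none of the 10 had an interaction with an unadjusted p under 0.05. For Selp the interaction was 0.50 (SE 0.365, 95% interval -0.30 to 1.3, adjusted p = 0.96). Over all genes the interaction was called for 0 of 22163, with 4.82% at an unadjusted p under 0.05. Between female and male mice, none of the 10 was called among AVF, where 0.0226% of genes were, or among sham, where 0.0451% were. At an unadjusted p under 0.05 there was 1 of the 10 in sham, Selp, beside 7.58% of all genes. Selp had a log2 difference of female against male of -0.67 (SE 0.258, adjusted p = 0.623).

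**Figure D5:**
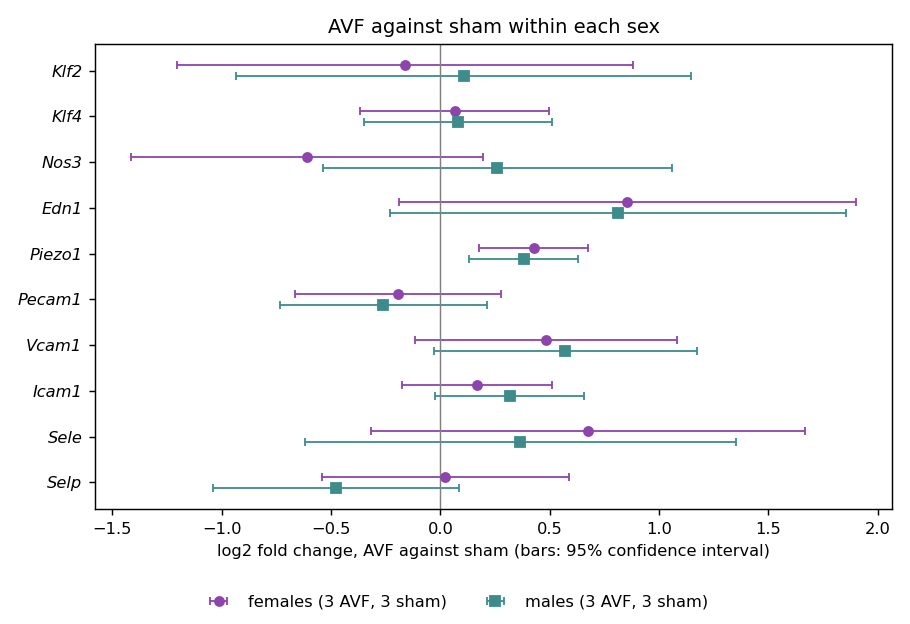
Log2 fold change of AVF against sham (x axis) for the 10 genes in females (circles) and males (squares), 3 AVF and 3 sham libraries in each, with bars for the 95% confidence interval. The intervals of females and males overlap for all 10 genes, and those of Piezo1 lie above 0 in both sexes.

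Per kilobase of exon, the genes could be ordered by their level over the 12 libraries. Pecam1 was the highest at 70.7 ± 14.4 normalized CPM per kilobase (mean ± SD, n = 12), above Klf4 (36.0 ± 6.79 per kilobase) in 12 of 12 libraries. Klf4 was above Klf2 (27.9 ± 11.5 per kilobase) in 10 of 12 libraries, and Klf2 above Edn1 (13.3 ± 7.58 per kilobase) in 11 of 12. Edn1, Vcam1 (10.0 ± 2.94) and Icam1 (8.62 ± 1.3) did not separate on this scale, since Edn1 was above Vcam1 in 7 libraries and Vcam1 above Icam1 in 7. Nos3 (7.11 ± 2.56), Piezo1 (5.58 ± 0.930) and Selp (4.84 ± 1.35) followed with levels per kilobase that overlapped from library to library. Sele was the lowest at 0.843 ± 0.373 per kilobase, below Selp in 12 of 12 libraries. The lengths were those of all annotated exons of a gene together, which overstates the length of a gene whose long isoforms are rare.

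The genes that varied most like each member among mice were sought by the correlation of log2 CPM, taken as deviations from the means of AVF and sham, over 12 libraries and 15911 other genes. These are descriptions, since the libraries share depth and tissue composition and the best of many genes is high for any gene. Klf2 varied most like S100a9 (r = 0.917), Il1b (r = 0.912) and Cxcr2 (r = 0.881). S100a9 and Cxcr2 are neutrophil markers, and the sum of the neutrophil markers was highest in Sham male 1 (125.3 normalized CPM) and Sham female 1 (107.9), the libraries with the most Klf2, and lowest in Sham female 3 (15.6), the library with the least. Neutrophils express Klf2 as well, and their part in its spread was not tested. Pecam1 varied most like the endothelial receptor Tek (r = 0.891), Gle1 (r = 0.862) and Mxd1 (r = 0.842), and Nos3 like Macrod1 (r = 0.942), Gm49708 (r = 0.942) and the endothelial gene Hspa12b (r = 0.924). Klf4 varied like Srp54a (r = 0.941), Trim24 (r = 0.868) and the basement membrane collagen Col4a1 (r = 0.856). Edn1 varied like Chpf2 (r = 0.942), Chaf1b (r = 0.930) and Camk1 (r = 0.926), and Piezo1 like H2-Q4 (r = 0.929), Zfp354b (r = 0.898) and Calhm2 (r = 0.874). Among the adhesion genes, Vcam1 varied like Tmem234 (r = 0.912), Slc3a2 (r = 0.902) and Gm19605 (r = 0.891), and Icam1 like Nek9 (r = 0.924), Tns1 (r = 0.921) and Klhl25 (r = 0.871). Sele varied like Slc35e2 (r = 0.934), Dcun1d1 (r = 0.920) and Cavin2 (r = 0.902), and Selp like Casp8 (r = 0.939), Cep135 (r = 0.914) and Tlr3 (r = 0.909).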

How the data were processed

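The authors trimmed 101-base paired reads from stranded poly(A) libraries, aligned them to GRCm39 with STAR 2.7.7a and the Ensembl annotation, and deposited expected counts, which RSEM 1.3.3 had estimated for each gene with reads assigned by strand, without normalization. Of a library's values, 5.72% to 7.75% were not whole, from reads shared between genes. No column of the table was left unused (0). Names, lengths and positions came from GENCODE M39 on the same build, and promoter sequences from the GRCm39 genome.

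Counts were rounded and scaled by TMM in edgeR 4.0.16 (R 4.3.3). AVF against sham was tested on genes that exceeded 1 CPM in 2 or more libraries, and the contrasts of sex on genes with more than 12 counts, in a fit of 4 groups. Groups came from the sample labels. Endothelial ratios, with 0.1 CPM added, were compared by exact permutation tests with unadjusted p, for 10 ratios to the marker sum and 10 to Cdh5. DESeq2 1.42.0, edgeR's exact test, other filters and scalings, covariates, a block and left-out libraries were alternatives. Totals of 15177881 to 22717423 counts made 3 counts worth 0.127 to 0.324 CPM, for counting error only. Scripts were tested on simulated data.

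The members and lists were chosen with earlier results of these data known. Named were all 10 members, up to 4 called genes of each pathway list, a set of partners of the members given by name (Ednra, Ednrb, Ece1, Itga4, Itgb2, Selplg, Cav1, Gch1 and Thbd), and the 3 genes most like each member. Eng, Mmrn2, Pdpn, Ddah1, Ptprb and Vwf are not covered by this rule and were chosen once their values had been seen. Cd99 had no match in the annotation. The result of 1 gene that the rule covers is not reported here.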

Additional observations from a re-analysis of the deposited data

Results flagged for a closer look

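In the 6 AVF and the 6 sham libraries of each of the 10 genes and of the endothelial marker sum, 22 groups in all, the highest and the lowest library were tested for a gap to the rest by Dixon's ratio at the 95% level, where chance flags about 1 in 20 groups. In the sham group Nos3 stood out in Sham female 1 at 65.5 normalized CPM, with the other 5 sham libraries at 23.5 to 37.1. That library also held 1500 normalized CPM of brown fat markers, the highest sum, and 562.2 of muscle markers. The part of these tissues in its Nos3 was not tested. In the AVF group Sele stood out in AVF female 2 at 7.13 normalized CPM, with the other 5 AVF libraries at 2.21 to 3.83. Both are given as values.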

How the results depend on the processing

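Piezo1 kept its call under all 11 alternatives and with each of 12 libraries left out. Of the 10 genes, 3 were called with edgeR's exact test and 3 with DESeq2, and 1 to 2 with 1 library left out. Over all genes, DESeq2 called 1432 lower, and leaving out AVF male 2 and AVF female 2 gave 911 higher and 319 lower. With 1 library left out there were 915 to 1599 higher and 414 to 947 lower. The log2 fold change of Klf2, near 0, turned below 0 with a filter of more than 12 counts (-0.02), with no filter (-0.02), without rRNA genes (-0.01), with sex as a covariate (-0.01) and without both libraries the study set apart (-0.17), and lay at -0.15 to 0.22 with 1 library left out. With 1 library left out it was -0.01 to 0.15 for Klf4, -0.30 to 0.05 for Nos3, -0.13 to 0.05 for Cav1 and -0.06 to 0.20 for Ednrb. The endothelial marker sum differed by -0.01 to 0.11 with 1 library left out. The median of log2 CPM over the markers within each library differed by -0.32, while the log2 fold changes of the markers had a median of 0.01. In females, the filter of more than 1 CPM gave 1 called member (Piezo1) and 783 genes over all, and leaving out 1 library 134 to 944 genes. In males, leaving out 1 library gave 5 to 153 genes over all, and between the sexes in sham 8 to 22. The cause of these shifts was not tested.

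Same-numbered AVF and sham mice of a sex correlated, in deviations from their group means, at -0.13 to 0.25. Only for AVF male 3 and AVF female 3 was the same-numbered library the best match among the sham libraries. The numbers were therefore not taken to pair the mice. With the number and sex as a replicate block, 2 of the 10 genes were called, and all called genes went from 2190 to 1980. Edn1 joined Piezo1 there (0.74, adjusted p = 0.0443). With the number as a block in the fit of 4 groups, 925 genes were called in females and 262 in males, and no member in either sex. No other call on a member changed with the block. Among the named partners, Jam2 lost its call (adjusted p = 0.0667) and Ednra and Itgb2 gained one (0.0272 and 0.0192).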
